A study of Mus musculus with 12 samples.

Results

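The response of the mouse colon to dextran sulfate sodium (DSS) was compared between mice that lack ATF6a and mice that lack ATF6b. For each gene the response was the level under DSS minus the level without it, and the response difference was the response in ATF6aKO minus the response in ATF6bKO. The 8 arrays of the knockouts, of the 12 arrays of the series, entered the comparison. They were chosen by the sample titles, and no measured value was used to choose them. A negative difference means that the response in ATF6bKO was the more positive of the 2.

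All samples were total RNA from the colon of male C57BL/6J mice, hybridised to Agilent 1-colour oligonucleotide arrays. The ATF6aKO DSS group held 2 arrays from mice with the genotype ATF6aKO that drank 3% DSS for 3 days, and the ATF6aKO UT group held 2 arrays from untreated mice of that genotype. The ATF6bKO DSS group held 2 arrays from mice with the genotype ATF6bKO given 3% DSS for 3 days, and the ATF6bKO UT group held 2 arrays from untreated mice of that genotype. The labels give neither the age of the mice nor the alleles, and nothing in them states whether both arrays of a group are from different animals. The p-values therefore measure only how far the samples at hand spread, and that spread can be technical. The comparison addresses whether the 2 knockouts respond to DSS differently, and it holds no wild-type response.

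ATF6a, encoded by Atf6, and its relative ATF6b, encoded by Atf6b, sit in the membrane of the endoplasmic reticulum (ER). When unfolded proteins accumulate they move to the Golgi, where proteases release a fragment that enters the nucleus and, for ATF6a, turns on genes of ER chaperones and of the degradation of misfolded proteins. DSS in the drinking water injures the colonic epithelium, and bacteria and immune cells then meet in the mucosa, where neutrophils, macrophages and T cells produce cytokines such as interferon gamma.

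Levels are the log2 processed signal minus the log2 of the array's 75th percentile, so a level of 0 is the signal at that percentile. Levels of different genes come from different probes and were not set against each other. Each knockout was hybridised on a slide of its own. An effect of the slide that adds the same amount to every array of that slide cancels in the response difference, while levels of the 2 knockouts cannot be told apart from levels of the 2 slides. Of 21956 genes tested, 13985 had a symbol. Between 65.5% and 70.7% of the probes were well above background on each array, and levels correlated at 0.984 to 0.992 between the 2 arrays of a group. The SD of the difference between the 2 arrays over genes was 0.401 in ATF6aKO DSS and 0.412 in ATF6aKO UT, and 0.541 in ATF6bKO DSS and 0.534 in ATF6bKO UT, so the ATF6bKO arrays had the wider spread.

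The targeted genes followed the labels. Atf6 had levels of -3.08 and -3.23 in ATF6aKO DSS and -3.23 and -3.04 in ATF6aKO UT, against 1.14 and 1.22 in ATF6bKO DSS and 0.74 and 0.89 in ATF6bKO UT. Atf6b had levels of -0.14 and 0.08 in ATF6aKO DSS and -0.01 and -0.07 in ATF6aKO UT, against -4.14 and -7.61 in ATF6bKO DSS and -7.64 and -6.48 in ATF6bKO UT. In ATF6bKO, 1 of the 2 DSS arrays and neither UT array had Atf6b well above background. Neither gene passed the test of the response difference (Atf6 -0.39, limma adjusted p = 0.416, and Atf6b -1.18, adjusted p = 0.749). The sources used here do not give where these probes lie relative to the deleted sequence.

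The 2 arrays of ATF6bKO DSS did not match in tissue. Genes of squamous epithelium, the stratified lining found at the anus and in the skin, stood at a median of 0.27 and 0.38 above the UT mean of their knockout in ATF6aKO DSS, against 1.51 and 7.08 in ATF6bKO DSS. Genes of skeletal muscle stood at 0.34 and 0.40 in ATF6aKO DSS, against -0.57 in replicate 1 and 4.39 in replicate 2 of ATF6bKO DSS. Krt5, a keratin of basal squamous cells, had levels of -4.10 and -4.17 in ATF6aKO DSS and -4.18 and -4.76 in ATF6aKO UT, against -0.40 and 3.56 in ATF6bKO DSS and -4.07 and -4.03 in ATF6bKO UT. Replicate 2 of ATF6bKO DSS was thus highest for these genes, and replicate 1 was also above every UT array for Krt5. The results below are given with and without that replicate. Without it the ATF6bKO DSS group has 1 array, whose spread is taken to be that of the other groups.

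At an adjusted p under 0.05 the response difference passed for 8 of 21956 genes (0.0364%), of which 3 had a positive difference (0.0137%) and 5 a negative one (0.0228%). Only S100a9 among them carries a symbol here. At an unadjusted p under 0.05 there were 2887 genes (13.1%), 1729 with a positive difference (7.87%) and 1158 with a negative one (5.27%). Quantile normalization turned that balance, with 1337 positive and 1499 negative, as did normexp background correction, with 959 and 1064. Without ATF6bKO DSS replicate 2, 3 genes passed at the adjusted threshold. At the unadjusted one 1376 genes were positive (6.27%) and 816 negative (3.72%). The median response difference over all genes was 0.10.

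DSS by itself moved many genes in each knockout. In ATF6aKO 1604 genes rose (7.31%) and 1653 fell (7.53%). In ATF6bKO 2048 rose (9.33%) and 2908 fell (13.2%). Of the genes that passed in each knockout, 2046 were shared, which was 62.8% of the ATF6aKO genes and 41.3% of the ATF6bKO genes. Of the shared genes 2031 moved in the same direction, and in 1181 of these the response was the larger in ATF6bKO. Over all genes the SD of the response was 0.651 in ATF6aKO and 0.840 in ATF6bKO, and the 2 responses correlated at a Pearson r of 0.627 over genes, which are not independent replicates. Leaving out either 1 of the 2 ATF6bKO DSS arrays lowered the counts in both knockouts. In ATF6bKO the counts were lower without replicate 2 than without replicate 1.

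**Figure D1:**
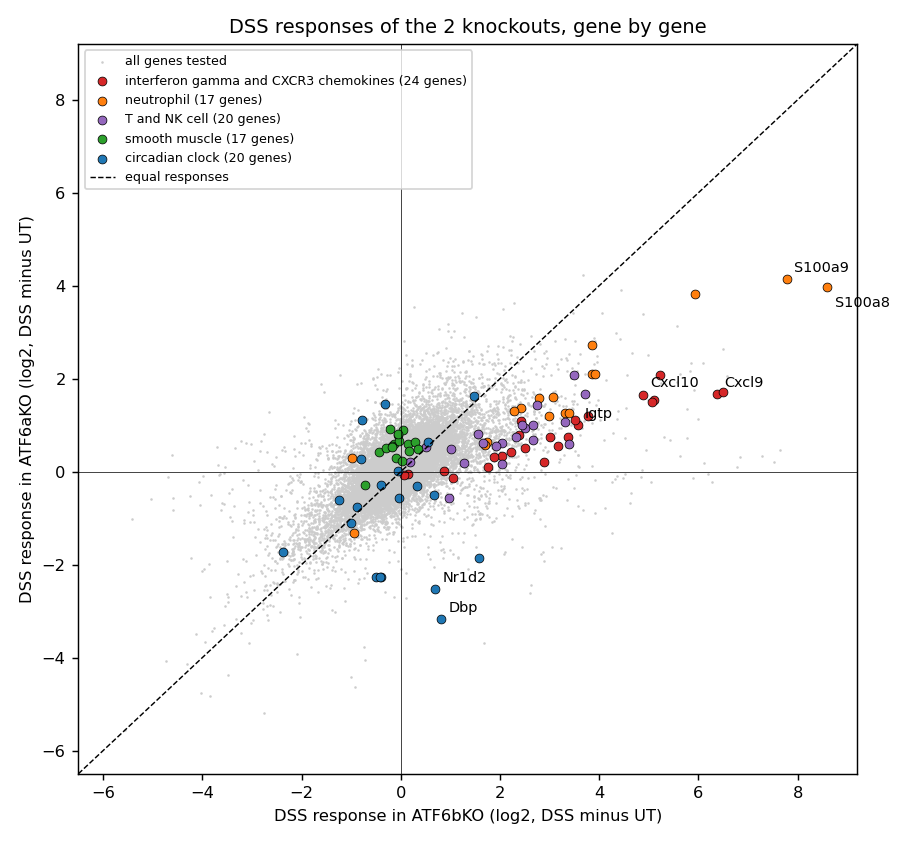
Each point is 1 gene, with its DSS response in ATF6aKO (vertical axis, log2) against that in ATF6bKO (horizontal axis, log2), and 5 gene lists are coloured. Interferon gamma, neutrophil and T cell genes lie below the dashed line of equal responses with few exceptions. S100a9 lies at 4.15 (vertical) and 7.78 (horizontal). Dbp and Nr1d2 also lie below that line, with ATF6aKO responses of -3.18 and -2.52.

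Of the 43 gene lists, the list of interferon gamma genes and CXCR3 chemokines had the most members at an unadjusted p under 0.05, 22 of 24, all with a negative difference. Interferon gamma, made by T and NK cells, acts on genes through a palindromic sequence called GAS and through factors of the IRF family, which bind a sequence called ISRE. Its targets include the immunity-related GTPases (Igtp, Iigp1, Irgm1, Irgm2, Tgtp1), the guanylate-binding proteins (Gbp genes) and the chemokines Cxcl9 and Cxcl10, which attract T cells that carry the receptor Cxcr3. Stretches of 300 bases around the start of the gene are shown for Igtp and Cxcl10, the members with the smallest p, and for Gbp2. They are from RefSeq on the build GRCm38.p6 and are written 5′ to 3′ on the strand of the gene. Capitals mark matches on either strand to the ISRE letters, which are GAAA, any 2 bases and GAAA again, and to the GAS letters TTCNNNGAA, where N is any base.
Igtp: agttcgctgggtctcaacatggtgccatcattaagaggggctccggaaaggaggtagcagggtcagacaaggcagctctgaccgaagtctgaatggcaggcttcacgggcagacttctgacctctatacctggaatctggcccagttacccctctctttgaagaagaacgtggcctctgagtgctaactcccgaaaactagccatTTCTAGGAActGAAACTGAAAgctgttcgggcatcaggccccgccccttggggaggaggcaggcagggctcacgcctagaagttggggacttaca
Cxcl10: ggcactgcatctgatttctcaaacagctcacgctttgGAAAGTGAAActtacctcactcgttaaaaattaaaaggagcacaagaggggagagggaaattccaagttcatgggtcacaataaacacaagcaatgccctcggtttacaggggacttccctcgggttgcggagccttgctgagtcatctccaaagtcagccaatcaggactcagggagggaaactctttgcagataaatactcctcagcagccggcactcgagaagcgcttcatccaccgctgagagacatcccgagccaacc
Gbp2: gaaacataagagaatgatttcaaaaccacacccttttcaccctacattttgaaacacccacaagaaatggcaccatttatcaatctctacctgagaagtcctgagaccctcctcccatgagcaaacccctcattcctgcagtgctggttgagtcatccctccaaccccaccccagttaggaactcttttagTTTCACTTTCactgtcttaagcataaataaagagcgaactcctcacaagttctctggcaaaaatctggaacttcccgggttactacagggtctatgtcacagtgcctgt

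The Igtp stretch is chr11:58199306-58199605 on the plus strand and holds 1 match to each motif. The Cxcl10 stretch is chr5:92348840-92349139 on the minus strand and the Gbp2 stretch chr3:142620413-142620712 on the plus strand, each with 1 ISRE match and no GAS match. The list of interferon gamma genes and CXCR3 chemokines had 21 such stretches for 18 genes in the table. ISRE letters occurred in 10 of the 21 (47.6%), against 3.44% of all 32851 stretches, and GAS letters in 8 (38.1%), against 8.30%. The 2 motifs overlapped in none of the 21 and in 24 of all stretches. The 3 stretches shown thus all belong to the 10 with ISRE letters. The stretch of Cxcl9, another member of the list, is not shown and held no match to either motif. A match describes the letters and does not show binding.

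Of the 24 measured genes of this list, all had a negative response difference, with a median of -2.34, against 8838 of 21956 negative and a median of 0.10 over all genes. At an unadjusted p under 0.05 there were 22 with a negative and none with a positive difference, and none passed after adjustment. Within the knockouts 6 of the 24 rose with DSS in ATF6aKO (median response 0.74), and 22 rose in ATF6bKO (median response 2.95). Without ATF6bKO DSS replicate 2 the median difference was -2.28, and 21 of the 24 had an unadjusted p under 0.05. Igtp, a GTPase that guards against intracellular parasites, had levels of 2.31 and 1.97 in ATF6aKO DSS and 1.26 and 1.04 in ATF6aKO UT, against 5.03 and 5.20 in ATF6bKO DSS and 1.55 and 1.56 in ATF6bKO UT. Both knockouts thus had both DSS arrays above both UT arrays, by 0.99 (adjusted p = 0.0199) in ATF6aKO and 3.56 (adjusted p = 0.00133) in ATF6bKO. The difference of -2.57 (SE 0.23) had an adjusted p of 0.0542, and it was -2.48 without ATF6bKO DSS replicate 2.

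Cxcl10, a ligand of Cxcr3, had levels of -0.19 and 0.31 in ATF6aKO DSS and -1.38 and -1.82 in ATF6aKO UT, against 2.53 and 1.97 in ATF6bKO DSS and -2.67 and -2.59 in ATF6bKO UT. It rose in both knockouts, by 1.66 (adjusted p = 0.0199) in ATF6aKO and by 4.88 (adjusted p = 0.00153) in ATF6bKO, with a difference of -3.22 (SE 0.38, adjusted p = 0.136). Cxcl9, another ligand of Cxcr3, had a response of 1.66 in ATF6aKO (adjusted p = 0.131) and rose by 6.37 in ATF6bKO (adjusted p = 0.00507). Its difference of -4.71 (SE 0.91) had an adjusted p of 0.223, and 1 of the 2 ATF6bKO UT arrays was above background. The further members of lists described here and below were chosen after their values were seen. Ifng, which encodes interferon gamma itself, had levels of -5.56 and -6.43 in ATF6aKO DSS and -7.88 and -8.27 in ATF6aKO UT, against -1.34 and -0.96 in ATF6bKO DSS and -6.19 and -6.56 in ATF6bKO UT. The Ifng probe was above background on 1 of the 2 ATF6aKO DSS arrays, on both ATF6bKO DSS arrays and on no UT array. Ifng was at least 1.03-fold higher under DSS in ATF6aKO (adjusted p = 0.0189) and at least 22.1-fold higher in ATF6bKO (adjusted p = 0.00207). The ATF6aKO rise thus lay almost wholly below the background limit. Here and below, an adjusted p beside such a bound is that of the levels as measured, not of the bound.

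A transcription factor and brakes of the pathway passed the test of DSS in ATF6bKO, with no response difference past the adjusted threshold. Irf1, a transcription factor that interferon gamma induces, had a response of 0.02 in ATF6aKO (adjusted p = 0.920) and rose by 0.88 in ATF6bKO (adjusted p = 0.0102). Socs1, which dampens the receptor, had a response of 0.78 in ATF6aKO (adjusted p = 0.0622) and rose by 2.38 in ATF6bKO (adjusted p = 0.00451). Cd274, which encodes the T cell inhibitor PD-L1, had 0.10 in ATF6aKO (adjusted p = 0.787) and rose by 1.76 in ATF6bKO (adjusted p = 0.00704). The receptor genes stood apart from this: Ifngr1 had responses of -0.05 in ATF6aKO and 0.15 in ATF6bKO, and Ifngr2 had -0.07 in ATF6aKO and 0.06 in ATF6bKO, none of which passed.

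**Figure D2:**
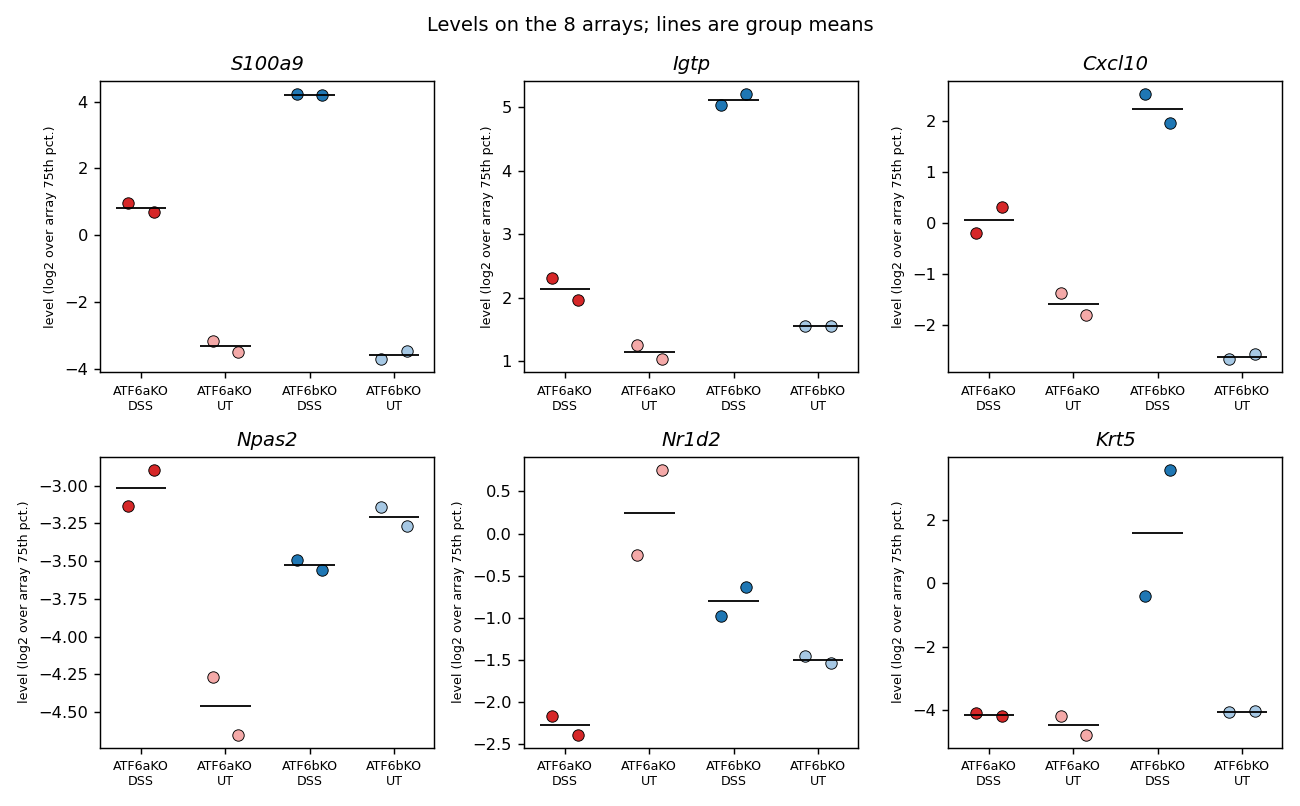
Levels (log2 over each array's 75th percentile, vertical axes) of 6 genes on the 8 arrays, with 2 points a group and lines at the group means. S100a9, Igtp and Cxcl10 are highest on the ATF6bKO DSS arrays, Npas2 and Nr1d2 separate DSS from UT more in ATF6aKO, and Krt5 is highest on replicate 2 of ATF6bKO DSS.

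Genes downstream of interferons in general and of antigen presentation had the same sign. Of 22 interferon-stimulated genes all had a negative difference (median -0.87, and -0.90 without ATF6bKO DSS replicate 2), 12 with an unadjusted p under 0.05, and none passed after adjustment. In ATF6aKO 3 of them rose, and in ATF6bKO 19. Ifit2, which blocks the translation of viral RNA, rose by 0.78 in ATF6aKO (adjusted p = 0.0297) and by 2.23 in ATF6bKO (adjusted p = 0.00269), with a difference of -1.45 (SE 0.22, adjusted p = 0.166). Ifit3, its partner, rose by 1.1 in ATF6aKO (adjusted p = 0.0127) and by 2.27 in ATF6bKO (adjusted p = 0.00193), with a difference of -1.16 (SE 0.19, adjusted p = 0.173).

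Of 10 genes of MHC class II presentation, by which cells show peptides to CD4 T cells, all had a negative difference (median -1.74, and -1.64 without ATF6bKO DSS replicate 2), 6 with an unadjusted p under 0.05. None of the 10 passed the test of DSS in ATF6aKO, where the median response was 0.78, and 7 rose in ATF6bKO (median response 2.46). H2-DMa, a chaperone that loads peptides, had levels of 1.41 and 0.68 in ATF6aKO DSS and 0.21 and 0.25 in ATF6aKO UT, against 2.27 and 2.76 in ATF6bKO DSS and -0.48 and -0.16 in ATF6bKO UT. Its response of 0.82 in ATF6aKO did not pass (adjusted p = 0.106), while it rose by 2.83 in ATF6bKO (adjusted p = 0.00507), and the difference was -2.01 (SE 0.40, adjusted p = 0.229). H2-DMb1, the other chain of that chaperone, had a difference of -2.05 (SE 0.41, adjusted p = 0.230). Ciita, the master regulator of these genes, had a difference of -1.99 (adjusted p = 0.239).

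Markers of the cells that make or follow interferon gamma moved with these genes. In whole colon, more cells of a type and more RNA per cell cannot be told apart. Of 20 T and NK cell genes 18 had a negative difference (median -1.43, and -1.59 without ATF6bKO DSS replicate 2), 13 of them with an unadjusted p under 0.05. With normexp the median was -0.49. DSS raised 3 of the 20 in ATF6aKO and 18 in ATF6bKO. Cd247, the signalling chain of the T cell receptor, had levels of -3.71 and -4.08 in ATF6aKO DSS and -4.86 and -4.41 in ATF6aKO UT, against -3.34 and -3.38 in ATF6bKO DSS and -5.71 and -5.66 in ATF6bKO UT. The probe was not well above background on the ATF6bKO UT arrays, and Cd247 was at least 4.59-fold higher under DSS in ATF6bKO (adjusted p = 0.00379). Its difference was -1.58 (SE 0.27, adjusted p = 0.199). Cd2, an adhesion receptor of T cells, had a response of -0.57 in ATF6aKO (adjusted p = 0.100) and rose by 0.96 in ATF6bKO (adjusted p = 0.0204), with a difference of -1.54 (SE 0.27, adjusted p = 0.202). The granzyme gene Gzmb rose in both (1.44 in ATF6aKO, adjusted p = 0.0498, and 2.74 in ATF6bKO, adjusted p = 0.00745), while Cd4 had a difference of 0.04. The median shift of T and NK cell genes on the DSS arrays was 1.01 and 0.39 in ATF6aKO, against 2.34 and 2.25 in ATF6bKO, and how far cell numbers contribute to the interferon gamma genes was not tested.

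**Figure D3:**
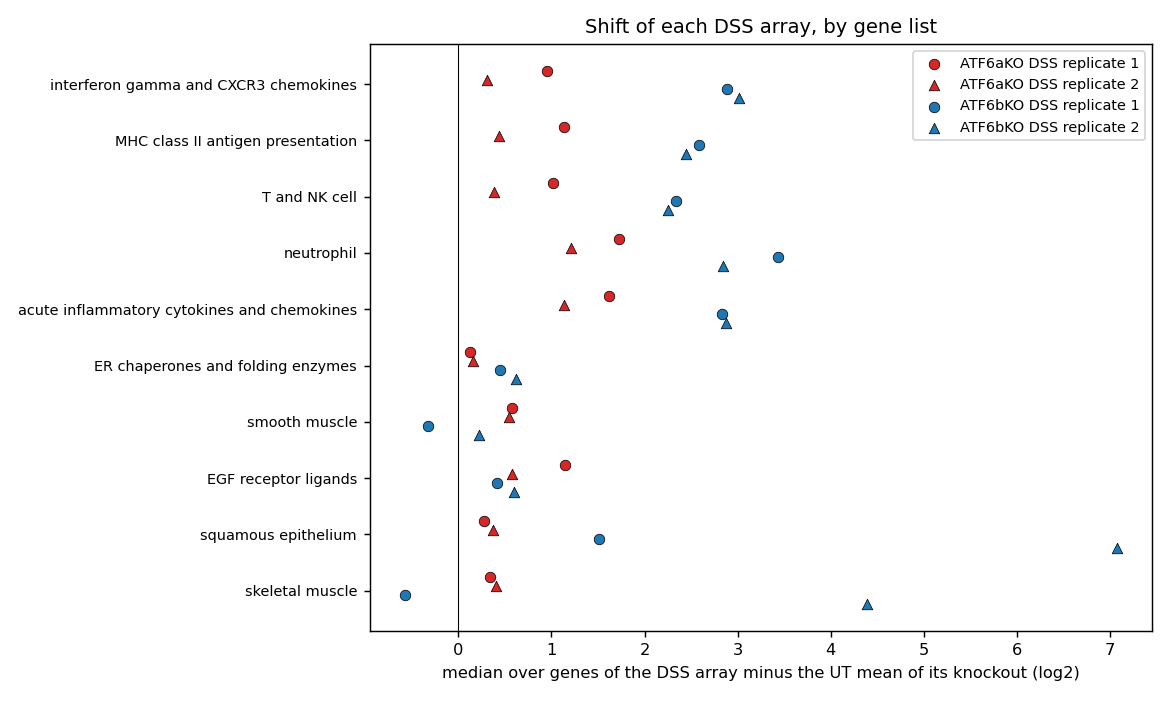
The median over the genes of a list of each DSS array's level minus the UT mean of its knockout (horizontal axis, log2), for 10 lists. For interferon gamma genes the ATF6aKO arrays lie at 0.95 and 0.31 and the ATF6bKO arrays at 2.88 and 3.01, and for squamous and skeletal muscle genes replicate 2 of ATF6bKO DSS lies far from replicate 1.

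Neutrophil genes held the named gene that passed. S100a9, a subunit of calprotectin, which neutrophils carry in bulk and squamous cells also make, had levels of 0.95 and 0.69 in ATF6aKO DSS and -3.16 and -3.49 in ATF6aKO UT, against 4.22 and 4.19 in ATF6bKO DSS and -3.70 and -3.45 in ATF6bKO UT. The UT arrays of the knockouts overlapped, and the DSS arrays did not. S100a9 rose by 4.15 (adjusted p = 0.00332) in ATF6aKO and by 7.78 (adjusted p = 0.000118) in ATF6bKO, and the response in ATF6aKO was lower by the test of the difference (-3.63, SE 0.24, adjusted p = 0.0324). Without ATF6bKO DSS replicate 2 the difference was -3.64 and its adjusted p was 0.12. The adjusted p was also over 0.05 without any 1 of the 4 ATF6aKO arrays (up to 0.319) and without ATF6bKO UT replicate 2 (0.0528). The squamous shifts of the 2 ATF6bKO DSS arrays were 1.51 and 7.08, and their part in the S100a9 response was not tested. S100a8, the other subunit, had levels of -1.05 and -1.36 in ATF6aKO DSS and -4.97 and -5.39 in ATF6aKO UT, against 2.07 and 1.91 in ATF6bKO DSS and -7.33 and -5.89 in ATF6bKO UT. It rose by 3.97 in ATF6aKO (adjusted p = 0.0119) and was at least 195-fold higher under DSS in ATF6bKO (adjusted p = 0.00142), where the UT arrays were not well above background. Its difference of -4.62 (SE 0.64) had an adjusted p of 0.158. With signals below the background limit raised to that limit, S100a8 had a difference of -3.63 and an adjusted p of 0.0325.

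Of 17 neutrophil genes 16 had a negative difference (median -1.46, and -1.39 without ATF6bKO DSS replicate 2), 11 with an unadjusted p under 0.05 and 1 after adjustment. With normexp background correction the median was -0.43. In ATF6aKO 9 rose and 1 fell, and in ATF6bKO 15 rose and 2 fell. The chemokine Ppbp, which platelets release to attract neutrophils, is outside this list. Ppbp had levels of -4.65 and -4.41 in ATF6aKO DSS and -5.12 and -5.43 in ATF6aKO UT, against -1.67 and 0.77 in ATF6bKO DSS and -5.30 and -6.21 in ATF6bKO UT. Its difference was -4.56 (SE 1.07, adjusted p = 0.261), and -3.34 without ATF6bKO DSS replicate 2, the higher of the 2 arrays. Within the list G0s2, a lipase inhibitor, was the exception with a positive difference of 1.29 (adjusted p = 0.227), as it had a response of 0.30 in ATF6aKO and fell by 0.99 in ATF6bKO (adjusted p = 0.0157).

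Acute inflammatory cytokines and chemokines had negative differences in 20 of 20 members (median -0.71, and -0.68 without ATF6bKO DSS replicate 2), 10 with an unadjusted p under 0.05. With normexp the median was -0.35. DSS raised 13 of them in ATF6aKO and 18 in ATF6bKO. Il6, a cytokine that induces acute-phase proteins, had levels of -3.16 and -3.19 in ATF6aKO DSS and -5.62 and -5.76 in ATF6aKO UT, against -1.22 and -0.84 in ATF6bKO DSS and -5.71 and -6.33 in ATF6bKO UT. It rose in both, by 2.52 in ATF6aKO (adjusted p = 0.00917) and at least 24.1-fold in ATF6bKO (adjusted p = 0.00133), with a difference of -2.47 (SE 0.33, adjusted p = 0.155). Ccl4, which attracts monocytes and T cells, rose by 1.35 (adjusted p = 0.0119) in ATF6aKO and by 3.01 (adjusted p = 0.00133) in ATF6bKO, with a difference of -1.66 (SE 0.22, adjusted p = 0.155). Other members were close in the 2 knockouts: Socs3, the brake on signalling by Il6, rose by 2.59 in ATF6aKO (adjusted p = 0.00881) and by 2.69 in ATF6bKO (adjusted p = 0.00393), a difference of -0.09 (SE 0.32). Ccl7, a chemokine for monocytes, rose by 1.86 in ATF6aKO (adjusted p = 0.0177) and by 2.06 in ATF6bKO (adjusted p = 0.00788).

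Of 22 monocyte and macrophage genes 18 had a negative difference (median -0.58), 4 with an unadjusted p under 0.05. The median was -0.91 without ATF6aKO DSS replicate 1 and -0.32 without ATF6aKO DSS replicate 2. In ATF6aKO 14 of them rose, and in ATF6bKO 20. Fcgr4, a receptor for antibodies, had a response of 1.08 in ATF6aKO (adjusted p = 0.0502) and rose by 3.55 in ATF6bKO (adjusted p = 0.00317), with a difference of -2.48 (SE 0.39, adjusted p = 0.170). Fcgr1, the high-affinity receptor for antibodies, rose by 1.28 in ATF6aKO (adjusted p = 0.0391) and by 2.78 in ATF6bKO (adjusted p = 0.00528), with a difference of -1.50 (SE 0.42, adjusted p = 0.291). Marco, a scavenger receptor of macrophages outside this list, had a difference of -4.49 (SE 1.19, adjusted p = 0.288), which was -3.56 without ATF6bKO DSS replicate 2. Its levels were -3.43 and -3.75 in ATF6aKO DSS and -1.66 and -3.89 in ATF6aKO UT, against -1.04 and 0.81 in ATF6bKO DSS and -3.64 and -3.93 in ATF6bKO UT, so the ATF6aKO groups overlapped.

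Of 17 B cell and plasma cell genes 15 had a negative difference (median -1.38), 3 with an unadjusted p under 0.05, and single arrays decided the size of that median. It was -2.14 without ATF6bKO DSS replicate 2, -0.28 without ATF6bKO DSS replicate 1 and -0.60 without ATF6aKO UT replicate 2, and -0.38 with normexp. Mzb1, a chaperone of the ER in plasma cells, had levels of 2.60 and 1.73 in ATF6aKO DSS and 2.63 and 2.79 in ATF6aKO UT, against 1.97 and 2.08 in ATF6bKO DSS and 0.12 and 1.0 in ATF6bKO UT. The ATF6aKO response of -0.54 did not pass (adjusted p = 0.344), and Mzb1 rose by 1.47 in ATF6bKO (adjusted p = 0.0383), with a difference of -2.01 (SE 0.52, adjusted p = 0.283). Pou2af1, a cofactor for antibody genes, had a difference of -2.29 (SE 0.69, adjusted p = 0.308).

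Antimicrobial genes of the epithelium and of neutrophils went both ways. Of 17 such genes 12 had a negative difference (median -0.29, -0.49 without ATF6bKO DSS replicate 2 and -0.46 without ATF6aKO UT replicate 1), 4 with an unadjusted p under 0.05. Nos2, which makes nitric oxide in response to interferon gamma and bacteria, had levels of -5.34 and -5.08 in ATF6aKO DSS and -6.57 and -6.03 in ATF6aKO UT, against -3.03 and -3.01 in ATF6bKO DSS and -6.78 and -6.48 in ATF6bKO UT. Nos2 was not well above background on any UT array, and was at least 1.77-fold higher under DSS in ATF6aKO (adjusted p = 0.0291) and at least 6.04-fold higher in ATF6bKO (adjusted p = 0.00193). Its difference was -2.52 (SE 0.31, adjusted p = 0.137), and -2.52 without ATF6bKO DSS replicate 2 (adjusted p = 0.340). With dim signals raised to the background limit it was -1.77 (adjusted p = 0.111). Ltf, which encodes the iron-binding protein lactoferrin, rose by 1.92 in ATF6aKO (adjusted p = 0.0479) and by 5.57 in ATF6bKO (adjusted p = 0.00396), with a difference of -3.65 (SE 0.68, adjusted p = 0.215). Saa1, an acute-phase protein, fell in both knockouts, with responses of -1.35 in ATF6aKO (adjusted p = 0.0345) and -1.63 in ATF6bKO (adjusted p = 0.0151).

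Of 21 ER chaperones and folding enzymes 19 had a negative difference (median -0.27, -0.21 without ATF6bKO DSS replicate 2 and -0.16 without ATF6aKO UT replicate 1), 4 with an unadjusted p under 0.05, and 1 had a positive one with such a p. Fewer had such a p without ATF6bKO DSS replicate 2, where that group has 1 array. In ATF6aKO 1 of the 21 rose with DSS, the chaperone Hspa5 (BiP), and in ATF6bKO 11 rose and 1 fell. Hspa5 had levels of 5.77 and 5.78 in ATF6aKO DSS and 5.26 and 4.89 in ATF6aKO UT, against 6.72 and 6.70 in ATF6bKO DSS and 5.67 and 5.96 in ATF6bKO UT. It rose by 0.70 in ATF6aKO (adjusted p = 0.0424) and by 0.89 in ATF6bKO (adjusted p = 0.0170), and the difference of -0.19 (SE 0.24) was within the error.

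Canx, the lectin chaperone calnexin, had levels of 4.31 and 4.47 in ATF6aKO DSS and 4.36 and 4.41 in ATF6aKO UT, against 4.74 and 4.79 in ATF6bKO DSS and 4.16 and 4.17 in ATF6bKO UT. The ATF6aKO groups overlapped, with a response of 0.01 (adjusted p = 0.949), while Canx rose by 0.60 in ATF6bKO (adjusted p = 0.0159). Its difference was -0.59 (SE 0.15, adjusted p = 0.284), and 2 of its 3 probes had that sign. Hyou1, a large chaperone that works with BiP, had a response of 0.23 in ATF6aKO (adjusted p = 0.407) and rose by 1.04 in ATF6bKO (adjusted p = 0.0148), with a difference of -0.81 (SE 0.26, adjusted p = 0.313). Creld2, a secreted ER stress protein, had 0.14 in ATF6aKO (adjusted p = 0.598) and rose by 0.90 in ATF6bKO (adjusted p = 0.0186). Txndc5, a disulfide isomerase, fell in ATF6bKO by 0.48 (adjusted p = 0.0458) and was the 1 with a positive difference and such a p (0.50, the sign of 1 of its 2 probes).

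Of 19 genes of ER-associated degradation, which clears misfolded proteins, 16 had a negative difference (median -0.17 with and without ATF6bKO DSS replicate 2), 4 with an unadjusted p under 0.05. Here too fewer had such a p without that replicate. None rose in ATF6aKO and 3 rose in ATF6bKO. Sel1l, the scaffold of the ubiquitin ligase of that pathway, had a response of -0.02 in ATF6aKO (adjusted p = 0.927) and rose by 0.47 in ATF6bKO (adjusted p = 0.0279), a difference of -0.49 (SE 0.15, adjusted p = 0.309). Erlec1, a lectin of that pathway, had a difference of -0.56 (SE 0.15, adjusted p = 0.291). The median over 25 translocon and secretory transport genes was -0.13, -0.02 without ATF6aKO UT replicate 1 and -0.29 without ATF6aKO UT replicate 2, with 1 unadjusted p under 0.05, that of the translocon channel gene Sec61a1 (-0.51, SE 0.18, adjusted p = 0.329). Kdelr2, which returns ER proteins from the Golgi, had -0.42 (SE 0.17, adjusted p = 0.381).

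The 18 sensors and transcription factors had a median of 0.03 and the 28 targets of ATF4 and CHOP a median of 0.06, against 0.10 over all genes, and none passed after adjustment. When single arrays were left out these medians took both signs, from -0.02 to 0.08 and from -0.15 to 0.20. Creb3l4, an ATF6 relative of goblet and secretory cells, had levels of 1.89 and 2.03 in ATF6aKO DSS and 3.11 and 3.17 in ATF6aKO UT, against 2.57 and 2.55 in ATF6bKO DSS and 2.37 and 2.72 in ATF6bKO UT. It fell in ATF6aKO by 1.18 (adjusted p = 0.0130), the ATF6bKO groups overlapped (0.02, adjusted p = 0.947), and the difference was -1.20 (SE 0.21, adjusted p = 0.199). Nfya, a subunit of the factor NF-Y that binds beside ATF6, differed between the responses by 0.79 (SE 0.26, adjusted p = 0.317). Wars, a tRNA synthetase that ATF4 and interferon gamma each induce, had -1.23 (SE 0.18, adjusted p = 0.165) and was the 1 of the 28 targets with an unadjusted p under 0.05. Cebpb, a transcription factor of the same list, rose in both knockouts (0.96 in ATF6aKO, adjusted p = 0.0174, and 1.33 in ATF6bKO, adjusted p = 0.00543), with a difference of -0.38 (SE 0.20, adjusted p = 0.461).

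**Figure D4:**
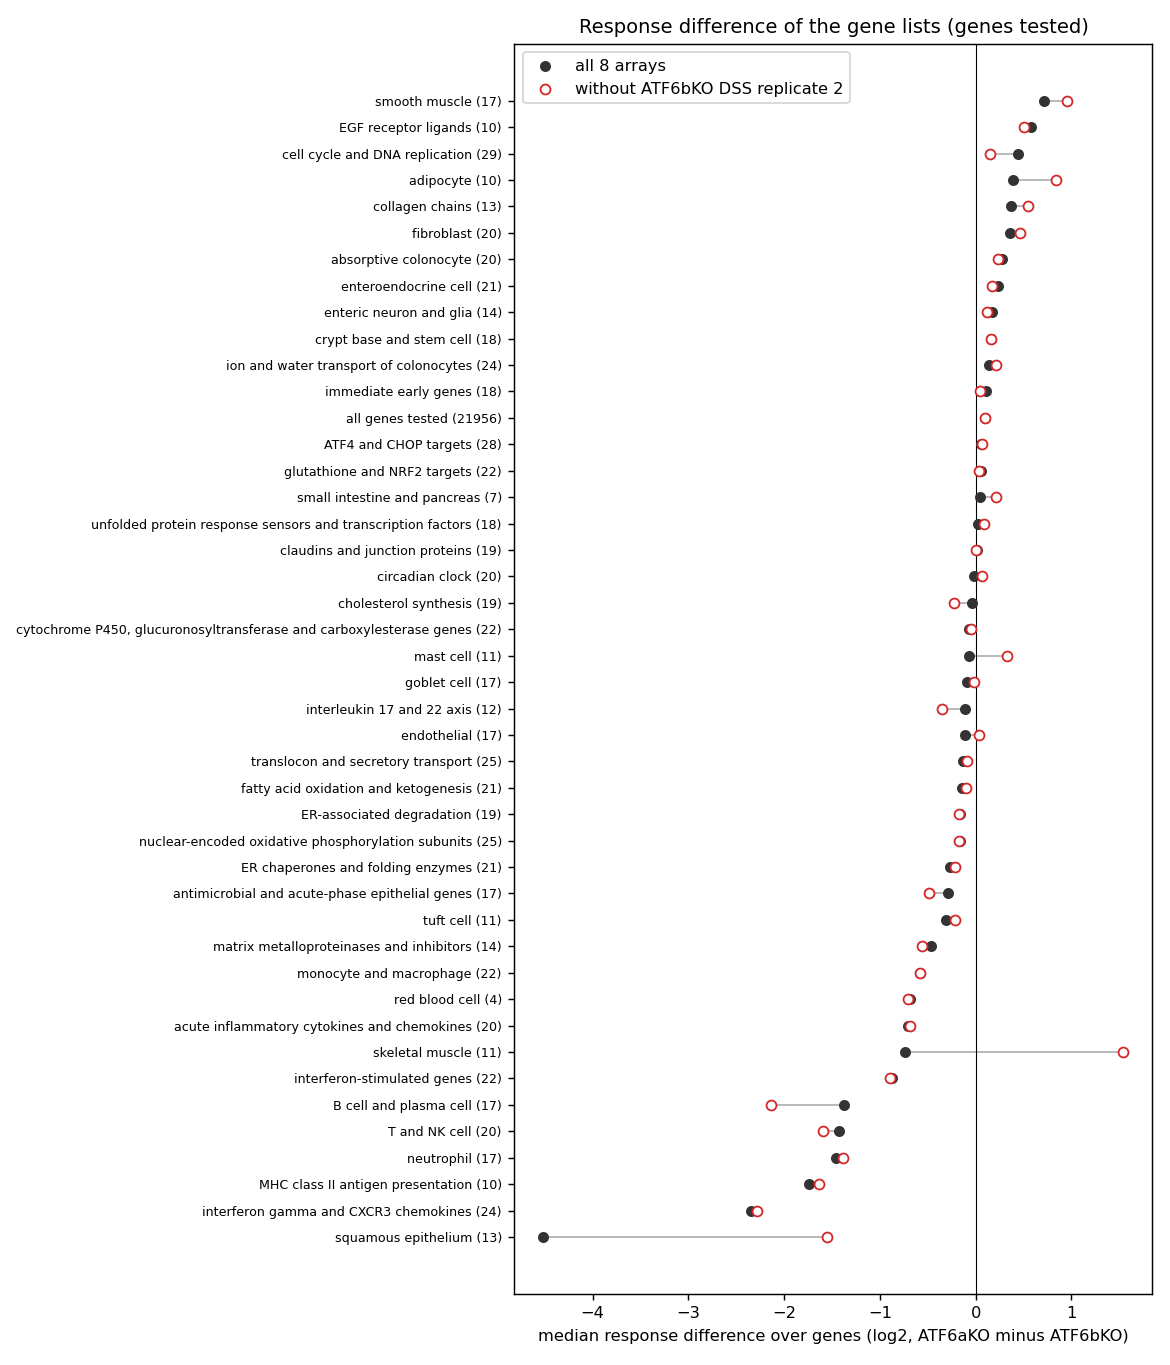
Median response difference (ATF6aKO minus ATF6bKO, log2, horizontal axis) of 43 gene lists and of all genes, with the number of genes tested in brackets, from all 8 arrays and without ATF6bKO DSS replicate 2. The interferon gamma list lies at -2.34 and -2.28, whereas squamous epithelium lies at -4.52 and -1.56 and skeletal muscle at -0.73 and 1.54.

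Positive differences were seen for genes of muscle, stroma and epithelial repair. Over all genes 13116 of 21956 had a positive difference, with a median of 0.10, and 7.87% were positive with an unadjusted p under 0.05. Of 17 smooth muscle genes all had a positive difference (median 0.71), 6 with an unadjusted p under 0.05, and none passed after adjustment. Without ATF6bKO DSS replicate 2 the median was 0.95 and 13 had such a p, while without ATF6bKO DSS replicate 1 it was 0.40, and 0.46 with normexp. DSS raised 2 of the 17 in ATF6aKO, Smtn and Kcnmb1, while 1 fell in ATF6bKO. The sources used here do not give the share of muscle wall in each piece of colon, and its part in these differences was not tested. Actn1, which cross-links actin, had levels of 1.57 and 1.57 in ATF6aKO DSS and 1.14 and 1.16 in ATF6aKO UT, against 0.74 and 1.01 in ATF6bKO DSS and 1.43 and 1.21 in ATF6bKO UT. DSS arrays were thus the higher in ATF6aKO and the lower in ATF6bKO, with a difference of 0.86 (SE 0.20, adjusted p = 0.253). Neither response of Actn1 passed (adjusted p = 0.0934 in ATF6aKO and 0.0677 in ATF6bKO). Smtn, a protein of contractile smooth muscle, rose by 0.59 in ATF6aKO (adjusted p = 0.0443) and had -0.13 in ATF6bKO (adjusted p = 0.538), with a difference of 0.72 (SE 0.20, adjusted p = 0.292).

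Of 20 fibroblast genes 17 had a positive difference (median 0.36, and 0.47 without ATF6bKO DSS replicate 2), 4 with an unadjusted p under 0.05. Single arrays moved that median, to 0.13 without ATF6aKO DSS replicate 1, 0.60 without ATF6aKO DSS replicate 2 and 0.22 without ATF6bKO DSS replicate 1. In ATF6aKO 12 rose, and in ATF6bKO 6, against 7.31% and 9.33% of all genes. Bmp4, a growth factor that the stroma sends to the epithelium, rose by 1.1 in ATF6aKO (adjusted p = 0.0137) and had 0.43 in ATF6bKO (adjusted p = 0.0704), with a difference of 0.66 (SE 0.20, adjusted p = 0.305). Fbln2, a protein of the matrix, rose by 0.66 in ATF6aKO (adjusted p = 0.0323) and had -0.06 in ATF6bKO (adjusted p = 0.781), with a difference of 0.72 (SE 0.19, adjusted p = 0.291). The 13 collagen chains had a median of 0.37, with 12 positive and none with an unadjusted p under 0.05. The collagen median was 0.13 without ATF6aKO DSS replicate 1, 0.56 without ATF6aKO DSS replicate 2, 0.24 without ATF6aKO UT replicate 2 and 0.23 without ATF6bKO DSS replicate 1. Col4a1, of the basement membrane, had 0.59 (SE 0.28) and Col5a1 0.43 (SE 0.24). Of 14 genes of enteric neurons and glia 9 had a positive and 5 a negative difference (median 0.18). That was near the 13116 of 21956 positive and the median of 0.10 over all genes. At an unadjusted p under 0.05, 2 of the 14 were positive and 1 negative. Stmn2, a protein of neurons and 1 of the 2, had a response difference of 0.63 (SE 0.17, adjusted p = 0.291).

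Ligands of the EGF receptor drive the closing of epithelial wounds. Their list held 10 genes, among them the receptor gene Egfr itself and the neuregulin genes Nrg1 and Nrg4. It had a median difference of 0.58 (0.51 without ATF6bKO DSS replicate 2), with 5 members positive at an unadjusted p under 0.05. The median was 0.36 with quantile normalization or normexp and 0.32 with the mean of probes. Hbegf had levels of 2.63 and 3.02 in ATF6aKO DSS and 1.24 and 1.03 in ATF6aKO UT, against 2.24 and 2.05 in ATF6bKO DSS and 1.51 and 1.53 in ATF6bKO UT. It rose in both, by 1.69 in ATF6aKO (adjusted p = 0.010) and by 0.62 in ATF6bKO (adjusted p = 0.0462), with a difference of 1.07 (SE 0.24, adjusted p = 0.248). Epgn had a response of 1.09 in ATF6aKO (adjusted p = 0.0676) and of -0.81 in ATF6bKO (adjusted p = 0.110), with a difference of 1.90 (SE 0.44, adjusted p = 0.259). Areg rose by 2.39 in ATF6aKO (adjusted p = 0.00966) and by 1.36 in ATF6bKO (adjusted p = 0.0127), and Ereg rose by 3.41 in ATF6aKO (adjusted p = 0.0113) and had 1.23 in ATF6bKO (adjusted p = 0.0635). The Ereg probe was above background on 1 of the 2 UT arrays of each knockout.

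Of 24 genes of ion and water transport 17 had a positive difference (median 0.13), 3 with an unadjusted p under 0.05. This was near the 13116 of 21956 positive and the median of 0.10 over all genes. The median of the 24 ran from -0.03 without ATF6aKO UT replicate 1 to 0.36 without ATF6aKO UT replicate 2. Car1, a carbonic anhydrase of these cells, had levels of 7.11 and 6.4 in ATF6aKO DSS and 5.68 and 5.85 in ATF6aKO UT, against 4.19 and 4.44 in ATF6bKO DSS and 5.62 and 4.73 in ATF6bKO UT. The DSS arrays were the higher in ATF6aKO and the lower in ATF6bKO, with a difference of 1.85 (SE 0.50, adjusted p = 0.290). Neither response of Car1 passed (adjusted p = 0.111 in ATF6aKO and 0.127 in ATF6bKO). Car4, another carbonic anhydrase, had a response of 0.02 in ATF6aKO (adjusted p = 0.952) and fell by 1.18 in ATF6bKO (adjusted p = 0.0192), with a difference of 1.21 (SE 0.33, adjusted p = 0.291). Lgr5, the receptor of crypt base stem cells, fell by 4.06 in ATF6aKO (adjusted p = 0.00332) and was at least 24.4-fold lower under DSS in ATF6bKO (adjusted p = 0.000658), with a difference of 0.67 (SE 0.24, adjusted p = 0.335). Of 29 cell cycle genes 19 fell in ATF6aKO, and 28 fell and 1 rose in ATF6bKO. Their median difference was 0.44, with 1 unadjusted p under 0.05. It ran from 0.15 without ATF6bKO DSS replicate 2 to 0.69 without ATF6bKO DSS replicate 1, with 0.24 without ATF6aKO DSS replicate 1 and 0.21 without ATF6aKO UT replicate 2, and was 0.10 with normexp.

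The clock is a loop in which ARNTL and its partners CLOCK or NPAS2 turn on the repressors of the Per, Cry and Nr1d families and the output factors Dbp and Tef, so that levels change with the hour of the day. Of 20 clock genes 4 had a positive and 6 a negative difference with an unadjusted p under 0.05, against 7.87% and 5.27% of all genes. The median was -0.02, and it ran from -0.22 with normexp to 0.08 without ATF6bKO UT replicate 2. None of the 20 passed after adjustment. Within the knockouts 4 rose and 7 fell in ATF6aKO, and 2 rose and 3 fell in ATF6bKO. Over all genes 7.31% rose and 7.53% fell in ATF6aKO, and 9.33% rose and 13.2% fell in ATF6bKO. The ATF6bKO counts of clock genes were thus near the shares over all genes. Without ATF6bKO DSS replicate 2 the median difference of the list was 0.065. The labels used here give no hour at which each mouse was killed, and its part in these differences was not tested.

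Nr1d2, a repressor of Arntl, had levels of -2.17 and -2.38 in ATF6aKO DSS and -0.26 and 0.75 in ATF6aKO UT, against -0.98 and -0.63 in ATF6bKO DSS and -1.45 and -1.54 in ATF6bKO UT. It fell in ATF6aKO by 2.52 (adjusted p = 0.0140) and had 0.69 in ATF6bKO (adjusted p = 0.176), with a difference of -3.21 (SE 0.46, adjusted p = 0.165). Dbp had levels of 0.40 and 0.20 in ATF6aKO DSS and 2.34 and 4.63 in ATF6aKO UT, against 1.40 and 1.99 in ATF6bKO DSS and 0.94 and 0.83 in ATF6bKO UT. The 2 ATF6aKO UT arrays were thus far apart, and the difference was -3.99 (SE 0.97, adjusted p = 0.268). Dbp fell in ATF6aKO by 3.18 (adjusted p = 0.0343).

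The activators of the loop had the opposite sign. Npas2 had levels of -3.14 and -2.90 in ATF6aKO DSS and -4.27 and -4.65 in ATF6aKO UT, against -3.49 and -3.56 in ATF6bKO DSS and -3.14 and -3.27 in ATF6bKO UT. It rose by 1.44 in ATF6aKO (adjusted p = 0.0120) and had -0.32 in ATF6bKO (adjusted p = 0.209), with a difference of 1.77 (SE 0.24, adjusted p = 0.155). Arntl rose by 1.12 in ATF6aKO (adjusted p = 0.0284) and had -0.78 in ATF6bKO (adjusted p = 0.0506), a difference of 1.90 (SE 0.31, adjusted p = 0.180). Per2, a repressor, fell in both, with responses of -1.72 in ATF6aKO (adjusted p = 0.0144) and -2.37 in ATF6bKO (adjusted p = 0.00481). The E-box letters CACGTG occurred in 6 of 22 promoter stretches of 17 clock genes (27.3%), against 7.15% of all stretches. These 6 belonged to 5 genes. The stretches of Nr1d2, Dbp and Npas2 held no match to these letters.

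**Figure D5:**
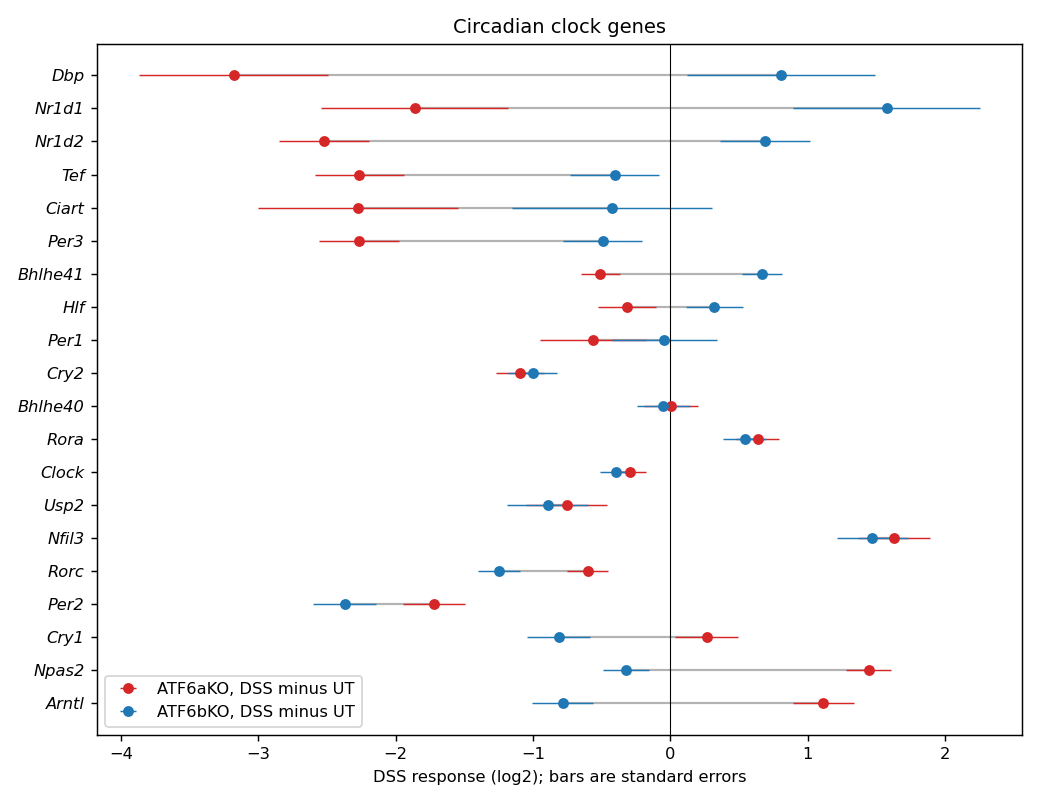
DSS responses (log2, horizontal axis) of 20 clock genes in ATF6aKO and ATF6bKO with their standard errors, ordered by the difference. Dbp, Nr1d1 and Nr1d2 have the most negative differences (-3.99, -3.44 and -3.21), and Npas2 and Arntl the most positive (1.77 and 1.90).

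Only 15 genes (0.0683%) passed in both knockouts with opposite directions, and 5 of these carry a symbol. Prnd, a relative of the prion protein, had levels of -5.75 and -6.33 in ATF6aKO DSS and -5.00 and -4.92 in ATF6aKO UT, against -4.31 and -4.27 in ATF6bKO DSS and -5.26 and -5.05 in ATF6bKO UT, so the groups did not overlap in either knockout, and 1 of the 2 ATF6aKO DSS arrays was above background. It fell in ATF6aKO by 1.08 (adjusted p = 0.0255) and rose in ATF6bKO by 0.87 (adjusted p = 0.0307). Zfp945 fell in ATF6aKO by 0.88 (adjusted p = 0.0426) and rose in ATF6bKO by 0.87 (adjusted p = 0.0340), and all 3 of its probes had a negative difference. Plppr2 rose in ATF6aKO by 1.02 (adjusted p = 0.0138) and fell in ATF6bKO by 0.50 (adjusted p = 0.0397). The lipid transporter gene Abca8a rose by 0.72 in ATF6aKO (adjusted p = 0.0404) and fell by 0.76 in ATF6bKO (adjusted p = 0.0264). Slc26a10 rose by 0.74 in ATF6aKO (adjusted p = 0.0326) and fell by 0.69 in ATF6bKO (adjusted p = 0.0284). None of the 5 passed the test of the difference itself, where adjusted p ran from 0.137 to 0.198. Without ATF6bKO DSS replicate 2 the ATF6bKO responses were 0.85 for Prnd, 0.97 for Zfp945, -0.59 for Plppr2, -0.76 for Abca8a and -0.68 for Slc26a10. These rest on 1 DSS array, and the ATF6bKO calls of the 5 genes were lost there.

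The largest positive differences as measured, among genes with a symbol and an unadjusted p under 0.01, were not past the adjusted threshold, and their order changed when dim signals were raised to the background limit. With that limit Syt10 had 3.88, Adamts4 3.28, Eml6 3.21, Syt6 3.02, Pgk2 2.19 and 1700001F09Rik 2.10. Prr18 had levels of -4.69 and -4.65 in ATF6aKO DSS and -4.08 and -5.02 in ATF6aKO UT, against -7.94 and -7.64 in ATF6bKO DSS and -3.14 and -3.07 in ATF6bKO UT. It was not well above background on the ATF6bKO DSS arrays, and was at least 5.73-fold lower under DSS in ATF6bKO (adjusted p = 0.00223). The difference was 4.57 (SE 0.43, adjusted p = 0.0575), and 2.40 with dim signals raised to the background limit (adjusted p = 0.186). Pgk2, a phosphoglycerate kinase of the testis, was well above background on the ATF6bKO UT arrays alone and was at least 4.69-fold lower under DSS in ATF6bKO (adjusted p = 0.00583). Eml6 was at least 9.14-fold lower under DSS in ATF6bKO (adjusted p = 0.00616), and 1700001F09Rik at least 4.40-fold lower (adjusted p = 0.0183). The latter was well above background on the ATF6bKO UT arrays alone, and Eml6 on these and on 1 array of each ATF6aKO group. Pgk2, Eml6 and 1700001F09Rik thus passed the filter only through ATF6bKO UT, where they were highest. A fall from that group is in part built into their selection. Syt6 and Rtbdn had differences of 3.86 and 3.61 (adjusted p = 0.248 and 0.216).

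Syt10, a sensor of calcium in secretion, was well above background on all 8 arrays. Its levels were 4.51 and 5.49 in ATF6aKO DSS and 4.04 and 4.65 in ATF6aKO UT, against 1.36 and 0.04 in ATF6bKO DSS and 4.37 and 3.48 in ATF6bKO UT. Syt10 fell in ATF6bKO by 3.22 (adjusted p = 0.0148), with a difference of 3.88 (SE 0.81, adjusted p = 0.238). Adamts4, a protease of the matrix, had levels of -1.20 and -1.73 in ATF6aKO DSS and -4.29 and -5.72 in ATF6aKO UT, against -2.08 and -1.77 in ATF6bKO DSS and -2.74 and -1.64 in ATF6bKO UT. It rose by 3.54 in ATF6aKO (adjusted p = 0.0189) and had 0.26 in ATF6bKO, where the groups overlapped (adjusted p = 0.760), with a difference of 3.28 (SE 0.78, adjusted p = 0.261). It was above background on 1 of the 2 ATF6aKO UT arrays. The collagenase Mmp13 of the same list went the other way, as it rose by 1.38 in ATF6aKO (adjusted p = 0.0454) and by 3.45 in ATF6bKO (adjusted p = 0.00490), and a difference of -2.07 (SE 0.48, adjusted p = 0.256).

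Squamous genes were among the largest negative differences. Sprr2d, a protein of the cornified envelope, had levels of -7.92 and -7.59 in ATF6aKO DSS and -8.05 and -8.12 in ATF6aKO UT, against -2.59 and 1.70 in ATF6bKO DSS and -7.62 and -7.84 in ATF6bKO UT. It was at least 35.9-fold higher under DSS in ATF6bKO (adjusted p = 0.0133), and was not well above background on the other 6 arrays. The difference was -6.95 as measured (SE 1.75, adjusted p = 0.276) and -5.20 with dim signals raised to the background limit (adjusted p = 0.305). Without ATF6bKO DSS replicate 2 it was -4.80 (adjusted p = 0.0494), a value that rests on 1 ATF6bKO DSS array against signal below background. Slurp1, a secreted protein of keratinocytes, had a difference of -4.48 (SE 1.22, adjusted p = 0.291), and -3.27 without that replicate. Of 13 squamous genes 12 had a negative difference, and their median was -4.52 with all arrays and -1.56 without replicate 2. For the 11 skeletal muscle genes the median was -0.73, and 1.54 without it, with 0 and 7 members at an unadjusted p under 0.05. Mylpf, a light chain of fast muscle, showed this most plainly, with levels of -3.22 and -3.25 in ATF6aKO DSS and -2.85 and -2.86 in ATF6aKO UT, against -3.43 and 1.83 in ATF6bKO DSS and -2.83 and -2.89 in ATF6bKO UT.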

How the data were processed

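Per the file headers, each array was scanned and quantified with Agilent Feature Extraction (version 10.7.1.1 per the submitters' processing notes), and the deposited files hold a processed signal intensity per spot, with background subtracted and no scaling between arrays, besides raw median intensities. The authors also deposited a value table with log2 values centred on each probe (41267 of 41268 probes had a mean of 0 within 0.001). Their scaling is unknown. In it the columns of the 2 ATF6aKO replicates of each group hold each other's arrays, which leaves the groups unchanged, and it served only as an alternative.

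From the scanner files, control spots and outlier spots (54 to 88 per array) were left out, and the level was log2 of the processed signal minus log2 of the array's 75th percentile. Probes well above background on both arrays of at least 1 of the 4 groups were kept (28884 of 41174), with the brightest probe for each gene. Accessions named 25193 probes (61.2%) through RefSeq on GRCm38.p6, and genes without a symbol were counted. One fit with limma 3.58.1 in R 4.3.3 gave 4 group means, with 4 residual degrees of freedom, from which the 2 responses and their difference were taken. It was tested on simulated data. P-values are two-sided and adjusted by Benjamini-Hochberg over all 21956 genes, with a threshold of 0.05. Lists are described by counts and medians. Bounds ("at least") set the dim group at the higher of its own signal and the lowest signal well above background on each array. The p-value beside a bound comes from the fit of the levels as measured, including signal below background. The number of arrays limits the precision.

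The comparison, the 43 gene lists (24 pathways and 19 cell types) and the rules were chosen with earlier results of these data known. Named genes are Atf6 and Atf6b, genes with a symbol past the threshold with a difference of at least 1 (up to 15 each way), filled to 8 each way with the largest differences at an unadjusted p under 0.01, up to 8 genes passing in opposite directions, and of each list the members past the threshold (up to 6), otherwise the 2 with the smallest p. Tried as alternatives were quantile normalization, normexp background correction (offset 50), no filter, a filter on all 8 arrays, a floor at background, all 12 arrays, the replicate number as a block, the mean of probes, the value table, an intensity trend and leaving out each array. The WT arrays, whose labels conflict, entered only the fit of 12 arrays. No columns of per-sample values were left unused. Results for some list members are not reported here.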

Additional observations from a re-analysis of the deposited data

Results flagged for a closer look

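The test of the difference between the responses of the 2 knockouts passed for 8 genes. Among them S100a9 had a difference of -3.63, with a rise in both knockouts and in both DSS arrays of each. The S100a9 probe was well above background on all 8 arrays. Its difference stayed between -3.80 and -3.47 whichever array was left out, while its adjusted p ran from 0.0230 to 0.319. The other 7 genes carry no symbol here, and of these the 2 with the smallest adjusted p in each direction are given. The difference was negative for AY027660 (-4.46, adjusted p = 0.0165) and for XM_001471580 (-3.52, adjusted p = 0.0324). Both probes were well above background on the 2 ATF6bKO DSS arrays alone, so these sizes are measured against signal below background. It was positive for AK080862 (2.41, adjusted p = 0.0341), which was above background on no DSS array, and for ENSMUST00000084674 (2.03, adjusted p = 0.0479), which was above background on all 8 arrays.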

How the results depend on the processing

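The counts of genes that passed rested on few arrays. Leaving out each array in turn gave between 0 and 13 genes with a higher and between 0 and 79 with a lower response in ATF6aKO, against 3 and 5 with all arrays, and 0 and 0 without any 1 of the ATF6aKO arrays. In the same way DSS raised 16 to 2380 and lowered 40 to 1703 genes in ATF6aKO (1604 and 1653 with all arrays), and raised 664 to 2292 and lowered 781 to 2335 in ATF6bKO (2048 and 2908). For the difference, the higher and lower counts were 5 and 5 with quantile normalization, 3 and 21 with normexp, 0 and 0 without a filter, with 12 arrays or with the replicate block, 1 and 8 with a floor at background, 3 and 8 in the value table, 1 and 3 with an intensity trend, and 1 and 4 with the strict filter. Without a filter the DSS counts were 609 and 618 in ATF6aKO and 1312 and 1714 in ATF6bKO. With 12 arrays they were 773 and 866 in ATF6aKO, with 1760 lower in ATF6bKO. With the replicate block they were 993 and 1016 in ATF6aKO. Replicate numbers did not pair the samples, as deviations of same-numbered arrays correlated between -0.0933 and 0.0857. For limma's 0 and 0 calls with that block, 1535 and 1055 genes had an unadjusted p under 0.05, with no filter 1793 and 1117, and with 12 arrays 1023 and 779. S100a9, the 1 named gene past the threshold, lost its call under 9 settings, and 15 other named genes, Igtp among them, gained one under at least 1 setting. No called value changed sign. The median difference of all genes ran from 0.0359 to 0.122. The cause of these changes was not tested.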
